A study of Mus musculus with 12 samples.

Results

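The 10 genes described here encode adhesion proteins of the synapse, the Slitrk proteins Slitrk2, Slitrk4 and Slitrk6, the leucine-rich repeat proteins Lrrtm1, Lrrtm2 and Lrrtm3, the neuroligins Nlgn1, Nlgn2 and Nlgn3, and the neurexin Nrxn3. They were chosen by name among the 55348 genes of the count tables, and all 10 passed the filter on low counts. RNA came from the cochlea's sensory epithelium (the organ of Corti) at postnatal day 21, after the stria vascularis and modiolus had been removed. Of the 4 genotypes, Clrn1-/- mice carried a constitutive deletion of a floxed exon of Clrn1 made with PGK-cre, Clrn2-/- mice carried the clarinet nonsense allele of Clrn2 throughout the body, and Clrn1-/-Clrn2-/- mice (double mutants) carried both. Wild-type mice came from separate breedings and were not littermates, so that breeding and genotype cannot be told apart in any comparison with wild-type. There were 3 libraries per genotype and 12 in all.

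Inner hair cells of the organ of Corti release glutamate onto the endings of auditory neurons at ribbon synapses. Across a synapse, neurexins on the presynaptic side bind neuroligins and Lrrtm proteins on the postsynaptic side, while Slitrk proteins bind presynaptic receptor phosphatases. Neuroligin-1 is known from excitatory synapses, neuroligin-2 from inhibitory ones, and neuroligin-3 from both. Slitrk6 is also known for the innervation of the inner ear. These were bulk libraries, in which fewer cells of a type and less RNA per cell cannot be told apart.

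Counts on genes ranged from 30008679 to 41049302 per library. Clrn1 followed the labels, while Clrn2 was low in every mutant. Clrn1 lay between 23.8 and 31.5 CPM (counts scaled to a common library total) in the 6 libraries with intact Clrn1 and between 1.77 and 3.04 CPM in the 6 without. Clrn2 lay between 1.89 and 3.24 CPM in wild-type and between 0.921 and 1.38 CPM in the 6 libraries with the Clrn2 mutation, and it was also low, 0.854 to 1.04 CPM, in Clrn1-/-, where the labels give no Clrn2 mutation (log2 fold change against wild-type -1.57, adjusted p = 7.41e-05). Xist, expressed from the inactive X chromosome of females, and the Y-linked Ddx3y were both present in every library, Xist at 113.6 to 260.4 CPM and Ddx3y at 40.5 to 63.0 CPM, so that each library held RNA of both sexes. Slitrk2, Slitrk4 and Nlgn3 are on the X chromosome.

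Slitrk6 rose in the double mutants to more than its level in either single mutant. In wild-type it was at 16.6, 17.5 and 18.5 CPM, in Clrn1-/- at 25.0, 24.2 and 27.0 CPM, in Clrn2-/- at 25.3, 24.0 and 32.7 CPM, and in the double mutants at 37.5, 44.6 and 39.5 CPM. Every mutant library was above every wild-type library, and the double mutants did not overlap with either single mutant. By edgeR's quasi-likelihood test with Benjamini-Hochberg adjustment, the log2 fold change against wild-type was 1.21 ± 0.0992 (SE, adjusted p = 1.47e-07) in the double mutants. A gene was called when the adjusted p was at most 0.05 and the change at least 1.5-fold, which is 0.585 on the log2 scale. Slitrk6 was called in Clrn2-/- (0.64 ± 0.10, adjusted p = 0.000491) and stayed under the fold minimum in Clrn1-/- (0.53 ± 0.10, adjusted p = 0.00102). The call in Clrn2-/- rested on replicate 3, without which the value was 0.50. Between the double mutants and Clrn1-/- the log2 fold change was 0.68 ± 0.0967 (adjusted p = 6.57e-05), which was called, and between them and Clrn2-/- it was 0.57 ± 0.0964 (adjusted p = 0.000452), under the fold minimum.

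Slitrk4 moved the other way. It was at 7.22, 7.15 and 7.82 CPM in wild-type, at 5.28, 4.76 and 5.58 CPM in Clrn1-/-, at 4.79, 5.39 and 4.69 CPM in Clrn2-/-, and at 3.15, 3.54 and 3.76 CPM in the double mutants. The libraries of wild-type, of both single mutants together and of the double mutants formed a falling order without overlap. It fell in the double mutants by 1.08 on the log2 scale (SE 0.107, adjusted p = 1.07e-06), a 2.12-fold decrease. In Clrn1-/- and Clrn2-/- the log2 fold changes were -0.51 (adjusted p = 0.00177) and -0.58 (adjusted p = 0.00134), under the fold minimum. Leaving out Clrn2-/- replicate 2, wild-type replicate 1 or wild-type replicate 2 took the second past it, to -0.64, -0.59 and -0.60.

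Slitrk2, an X-linked relative of Slitrk4, was at 5.16 to 5.73 CPM in wild-type and at 6.57 to 7.48 CPM in the 9 mutant libraries. All 9 were above wild-type, with log2 fold changes of 0.32 in Clrn1-/-, 0.37 in Clrn2-/- and 0.39 in the double mutants. By edgeR, the adjusted p was 0.0134, 0.0106 and 0.0024, and none reached the fold minimum. Between the double mutants and Clrn1-/- the difference had a 95% interval of -0.12 to 0.26 on the log2 scale.

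**Figure D1:**
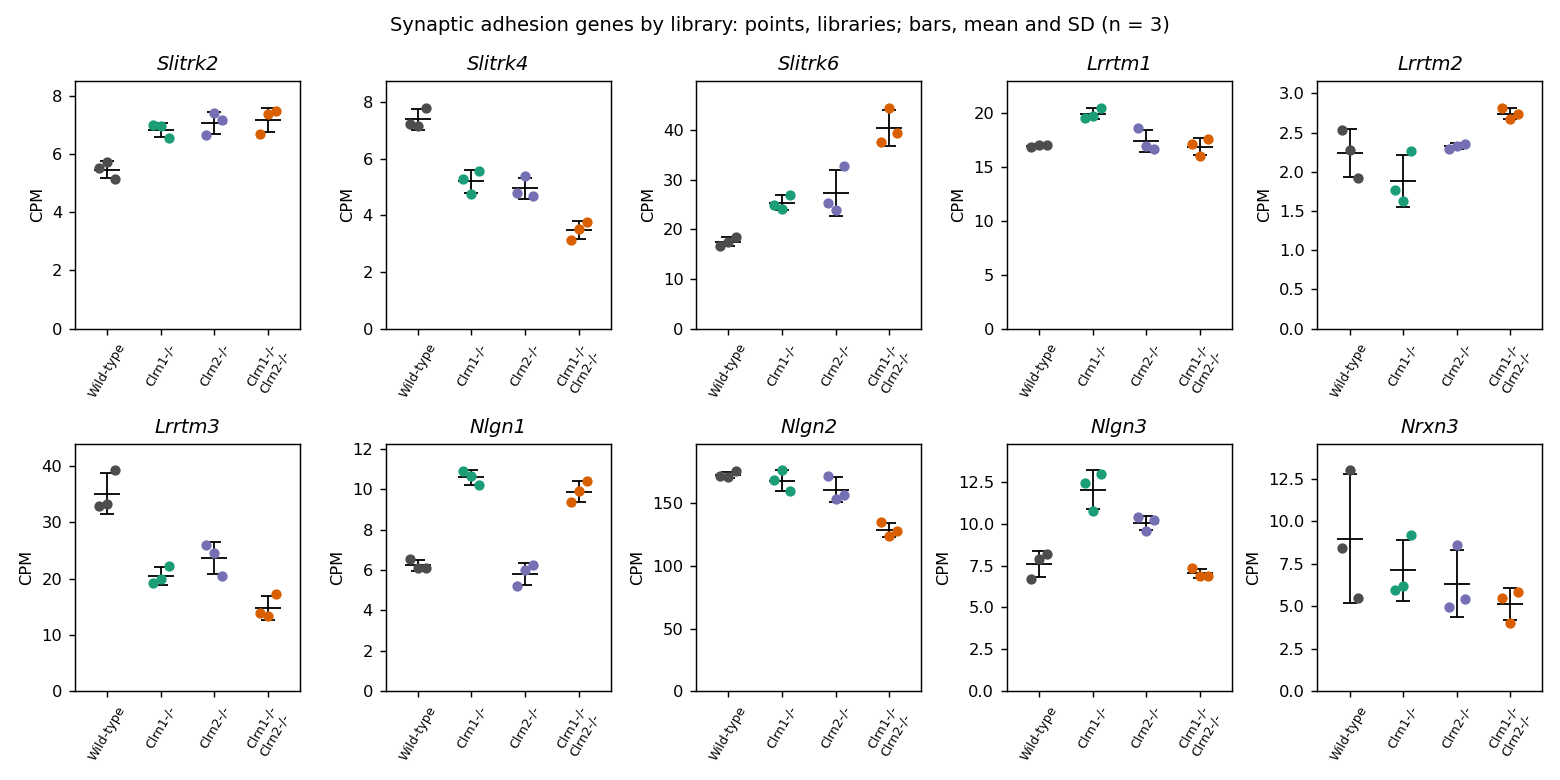
CPM of each gene (vertical axis, starting at 0) in each of the 12 libraries by genotype, with the mean and SD of 3 libraries as bars. Slitrk6 is highest and Slitrk4 and Lrrtm3 are lowest in the double mutants, Nlgn1 is high in both genotypes without Clrn1, and Nlgn3 is high in both single mutants and near wild-type in the double mutants.

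Lrrtm3, a postsynaptic partner of neurexins, had the largest decrease of the 10 genes in the double mutants. It was at 32.8, 33.2 and 39.2 CPM in wild-type, at 19.2, 19.9 and 22.2 CPM in Clrn1-/-, at 25.9, 24.6 and 20.5 CPM in Clrn2-/-, and at 13.8, 13.3 and 17.3 CPM in the double mutants. No mutant library reached a wild-type library, and the single mutants overlapped with each other but not with the double mutants. It fell by 1.24 on the log2 scale in the double mutants (SE 0.107, adjusted p = 2.65e-07) and by 0.78 in Clrn1-/- (SE 0.104, adjusted p = 5.41e-05). In Clrn2-/- the log2 fold change was -0.57 (adjusted p = 0.00154), under the fold minimum, and without Clrn2-/- replicate 1 or 2 or wild-type replicate 1 or 2 it was between -0.63 and -0.60, past it. The double mutants were lower than Clrn2-/- by -0.67 (SE 0.109, adjusted p = 0.000322).

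Lrrtm1 and Lrrtm2, which share the neurexin binding of Lrrtm3, were not called in any mutant against wild-type. Lrrtm1 was at 16.8 to 17.0 CPM in wild-type and at 19.5 to 20.5 CPM in Clrn1-/-, where the log2 fold change was 0.23 (adjusted p = 0.0108), while in Clrn2-/- and the double mutants its ranges overlapped with wild-type. Lrrtm2, the lowest of the 10 per exon length in wild-type but not in the double mutants, was at 1.63 to 2.82 CPM over the 12 libraries, and its log2 fold changes against wild-type were -0.24, 0.05 and 0.29, with adjusted p of 0.279, 0.864 and 0.146. In the double mutants its 3 libraries, at 2.82, 2.67 and 2.73 CPM, lay above those of wild-type at 2.53, 2.27 and 1.92 CPM. Each Lrrtm gene lies inside a catenin gene on the opposite strand. Only Lrrtm2 shares exon bases with its host, 95 bases or 1.58% of its own. The part of this overlap in the counts was not tested. By edgeR, Lrrtm1 in the double mutants had a log2 fold change against wild-type of -0.0066 (adjusted p = 0.948). In the double mutants against wild-type Ctnna3, the host of Lrrtm3, had a log2 fold change of 0.02 (adjusted p = 0.9), Ctnna2, the host of Lrrtm1, of -0.40 (adjusted p = 2.89e-05), and Ctnna1, the host of Lrrtm2, of 0.41 (adjusted p = 8.86e-07). Between the double mutants and Clrn1-/-, Lrrtm1 and Ctnna2 were both lower, at -0.24 (adjusted p = 0.00776) and -0.40 (adjusted p = 4.19e-05), and Lrrtm2 and Ctnna1 both higher, at 0.54 (adjusted p = 0.0148) and 0.36 (adjusted p = 4.98e-06), while Lrrtm3 was at -0.46 (adjusted p = 0.00434) and Ctnna3 at -0.17 (adjusted p = 0.257).

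The upstream sequences of Slitrk6 and Lrrtm3 are shown because these were the genes that rose and fell most in the double mutants. They are the 250 bases before the start site in RefSeq on GRCm38.p6, both on the minus strand, for Slitrk6 at chr14:110755150-110755399 and for Lrrtm3 at chr10:64090256-64090505. The last bases of the Lrrtm3 window lie inside the gene as Gencode draws it. Capitals mark matches, on either strand, to a TATA box (TATAAA), a GC box (GGGCGG), an E-box (CACGTG) or a CRE (TGACGTCA).
Slitrk6: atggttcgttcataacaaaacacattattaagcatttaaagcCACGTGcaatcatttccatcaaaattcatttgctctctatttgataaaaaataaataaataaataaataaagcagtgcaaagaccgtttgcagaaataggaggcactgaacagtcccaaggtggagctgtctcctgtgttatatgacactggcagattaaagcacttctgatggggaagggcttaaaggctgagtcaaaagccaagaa
Lrrtm3: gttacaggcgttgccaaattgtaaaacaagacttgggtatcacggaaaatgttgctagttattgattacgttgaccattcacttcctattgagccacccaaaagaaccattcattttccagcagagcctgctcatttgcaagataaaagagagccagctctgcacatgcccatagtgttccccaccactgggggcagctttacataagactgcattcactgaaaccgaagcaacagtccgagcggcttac
The Slitrk6 window held 1 E-box and the Lrrtm3 window none of the 4 motifs. Of the 32851 windows of this length, 12.4% held a TATA box, 32.7% a GC box, 6.02% an E-box and 1.55% a CRE. A match is a description of the letters alone. Windows were found for 7 of the 10 genes, and those of Slitrk6 and Lrrtm3 had a GC content of 37.2% and 46%.

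Nlgn1 rose wherever Clrn1 was missing. It was at 6.52, 6.08 and 6.07 CPM in wild-type, at 10.9, 10.7 and 10.2 CPM in Clrn1-/-, at 5.19, 6.0 and 6.24 CPM in Clrn2-/-, and at 9.34, 9.90 and 10.4 CPM in the double mutants. The 6 libraries without Clrn1 were all above the 6 with it. The log2 fold change was 0.76 ± 0.0866 (SE, adjusted p = 1.13e-05) in Clrn1-/- and 0.67 ± 0.0873 (adjusted p = 1.8e-05) in the double mutants, and -0.10 (adjusted p = 0.524, 95% interval -0.29 to 0.09) in Clrn2-/-. Clrn1-/- exceeded Clrn2-/- by 0.86 (adjusted p = 5.39e-06), and the double mutants exceeded Clrn2-/- by 0.77 (adjusted p = 1.46e-05), both called. Nlgn1 spans chr3:25426215-26332460 on the minus strand of GRCm38, and Clrn1 lies on the same chromosome at chr3:58844028-58885340. The antisense gene A830092H15Rik, which overlaps 9.16% of the exon bases of Nlgn1, was at 0.545 to 0.696 CPM in Clrn1-/- and at 0.197 to 0.301 CPM in wild-type, a log2 fold change of 1.43 (adjusted p = 0.00402). In the double mutants it was at 0.295 to 0.516 CPM, a log2 fold change of 0.79 that did not pass (adjusted p = 0.0925). The part of this linkage and of the antisense gene in the result was not tested.

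Nlgn3, another neuroligin, rose in Clrn1-/- and was near its wild-type level in the double mutants. It was at 6.69, 7.92 and 8.17 CPM in wild-type, at 12.4, 10.7 and 12.9 CPM in Clrn1-/-, at 10.4, 9.58 and 10.2 CPM in Clrn2-/-, and at 7.34, 6.87 and 6.88 CPM in the double mutants. Both single mutants lay above wild-type without overlap, while the double mutants overlapped with wild-type. The log2 fold change was 0.66 ± 0.0933 (SE, adjusted p = 8.56e-05) in Clrn1-/-, which was called, 0.40 (adjusted p = 0.00919) in Clrn2-/-, and -0.11 (adjusted p = 0.399, 95% interval -0.32 to 0.09) in the double mutants. The call in Clrn1-/- was lost without wild-type replicate 1, at 0.583 on the log2 scale. The double mutants were lower than Clrn1-/- by -0.78 (SE 0.0947, adjusted p = 1.54e-05). Exons of Nlgn3 share 41.2% of their bases with the transcript Gm21986 on the same strand, where reads cannot be assigned to one gene, so that its level is understated by an unknown amount. Gm21986 itself was at 0.403 to 0.843 CPM.

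Nlgn2 was the most abundant of the 10, also per exon length. It was at 171.7, 170.7 and 175.6 CPM in wild-type, at 168.4, 176.4 and 159.8 CPM in Clrn1-/-, at 172.1, 153.6 and 156.8 CPM in Clrn2-/-, and at 135, 124 and 128 CPM in the double mutants. Only the double mutants stood apart, below all other libraries. In the double mutants it fell by 0.42 on the log2 scale (SE 0.0506, adjusted p = 7.76e-06), and against Clrn1-/- and Clrn2-/- by 0.38 (adjusted p = 3.2e-05) and 0.32 (adjusted p = 0.00027). These changes passed the adjusted p and stayed under the fold minimum.

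Nrxn3, the presynaptic member, varied widely between libraries of one genotype. It was at 8.46, 13.0 and 5.47 CPM in wild-type, at 5.98, 6.21 and 9.19 CPM in Clrn1-/-, at 4.95, 8.63 and 5.45 CPM in Clrn2-/-, and at 5.51, 4.04 and 5.83 CPM in the double mutants. The double mutants overlapped with wild-type. The log2 fold change was -0.80 ± 0.276 (SE, adjusted p = 0.0315) in the double mutants, a call that was lost with limma-voom (adjusted p = 0.0676) and DESeq2 (adjusted p = 0.064), without wild-type replicate 2 (-0.44, adjusted p = 0.204), and without wild-type replicate 1 or double-mutant replicate 1 or 2. Against wild-type, Clrn1-/- and Clrn2-/- had log2 fold changes of -0.32 (adjusted p = 0.405) and -0.50 (adjusted p = 0.244), the latter reaching the call without wild-type replicate 3 (-0.77). Dct, a marker of stria melanocytes, was at 44.6, 60.5 and 12.2 CPM in the wild-type libraries and at 9.64, 5.38 and 15.3 CPM in the double mutants, in the same order as Nrxn3 in these genotypes, but not in Clrn1-/- (34.6, 8.36 and 31.0 CPM) or Clrn2-/- (57.9, 43.0 and 10.1 CPM). The 8 stria markers had a median log2 fold change of -0.77 in the double mutants, with 1 called higher and 3 lower and a sum of 838.8 to 907 CPM against 716 to 844 CPM in wild-type. Their part in the Nrxn3 values was not tested.

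**Figure D2:**
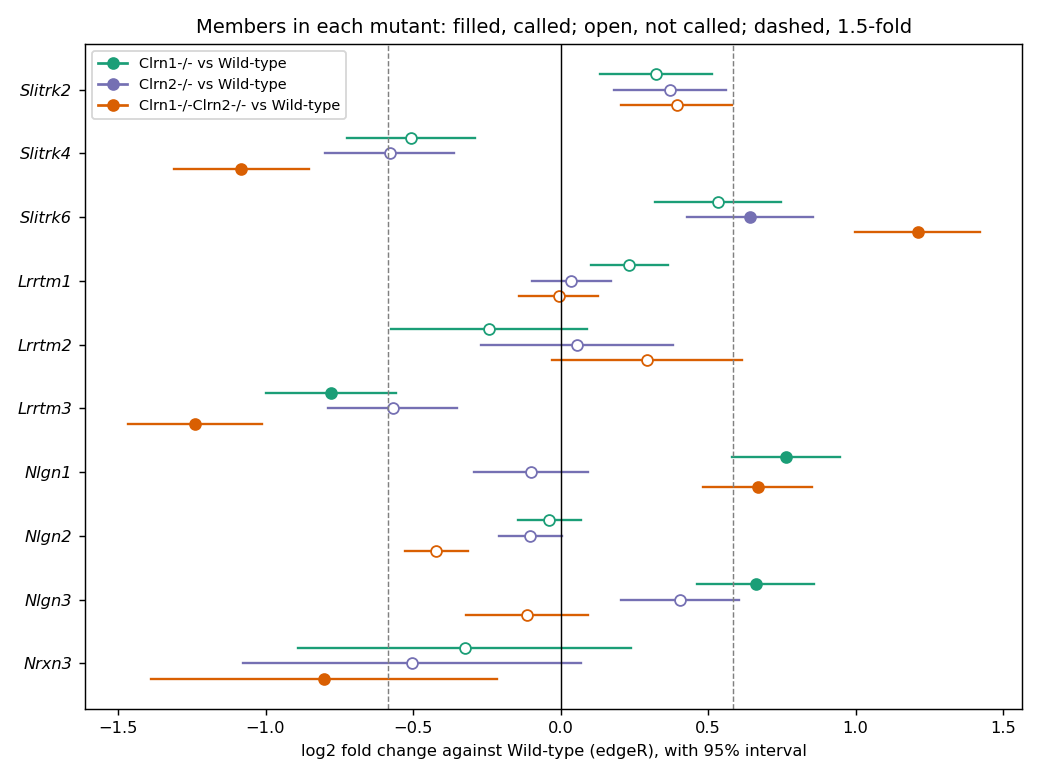
Log2 fold change of each gene against wild-type in Clrn1-/-, Clrn2-/- and the double mutants, with 95% intervals; filled points were called and open ones were not, and dashed lines mark 1.5-fold. Slitrk6 reaches 1.21 and Lrrtm3 -1.24 in the double mutants.

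Clrn1-/- mice had 3 calls among the 10 genes, Nlgn1 and Nlgn3 higher and Lrrtm3 lower, where 7.22% of all 19052 genes tested were called. Clrn2-/- had 1 call, Slitrk6, against a background of 2.66%. The double mutants had 5, Slitrk6 and Nlgn1 higher and Slitrk4, Lrrtm3 and Nrxn3 lower, against 9.9%. By adjusted p alone, 7, 5 and 7 members passed, against 26.9%, 14.2% and 37% of all genes. Libraries did not overlap with wild-type in 7 members in Clrn1-/- (40.2% of all genes), in 5 in Clrn2-/- (29%) and in 7 in the double mutants (48.2%). The median log2 fold change of the 10 was 0.10, -0.03 and -0.06, and that of all genes tested was -0.0031, -0.0025 and 0.001. These comparisons share the wild-type libraries, and each mutant's values are given side by side.

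Between the mutants, the double mutants and Clrn1-/- differed in 2 called members, Slitrk6 higher and Nlgn3 lower, where 7.23% of all genes were called. Against Clrn2-/- there were 2, Nlgn1 higher and Lrrtm3 lower, with 5.1% of all genes called. Clrn1-/- and Clrn2-/- differed in 1, Nlgn1, with 4.73%. With a library left out, these 3 counts of called members were 2 to 4, 2 to 3 and 1. By adjusted p alone, 7 members passed between the double mutants and Clrn1-/- (30.4% of all genes), 6 between the double mutants and Clrn2-/- (27.6%) and 2 between the single mutants (18.5%).

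The interaction asks whether the difference between the double mutants and Clrn2-/- was another than that between Clrn1-/- and wild-type. It includes the wild-type libraries, so that breeding and genotype cannot be told apart in it. It was called for 1 member, Nlgn3, at -1.18 on the log2 scale (SE 0.134, adjusted p = 3.11e-05), where 5.5% of all genes were called. Nlgn2, at -0.28 (adjusted p = 0.0129), and Lrrtm1, at -0.28 (adjusted p = 0.0409), passed the adjusted p, as did 17.4% of all genes, and were under the fold minimum. Lrrtm1 missed the adjusted p in 8 of 20 alternatives, with adjusted p up to 0.0989 (without Clrn2-/- replicate 1), and in the others it passed. For Lrrtm3, Slitrk6 and Slitrk4, which moved furthest in the double mutants, the interaction was 0.11 (95% interval -0.21 to 0.43), 0.03 (-0.26 to 0.33) and 0.0043 (-0.33 to 0.34). For Nlgn1 it was 0.0042 (-0.26 to 0.27).

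**Figure D3:**
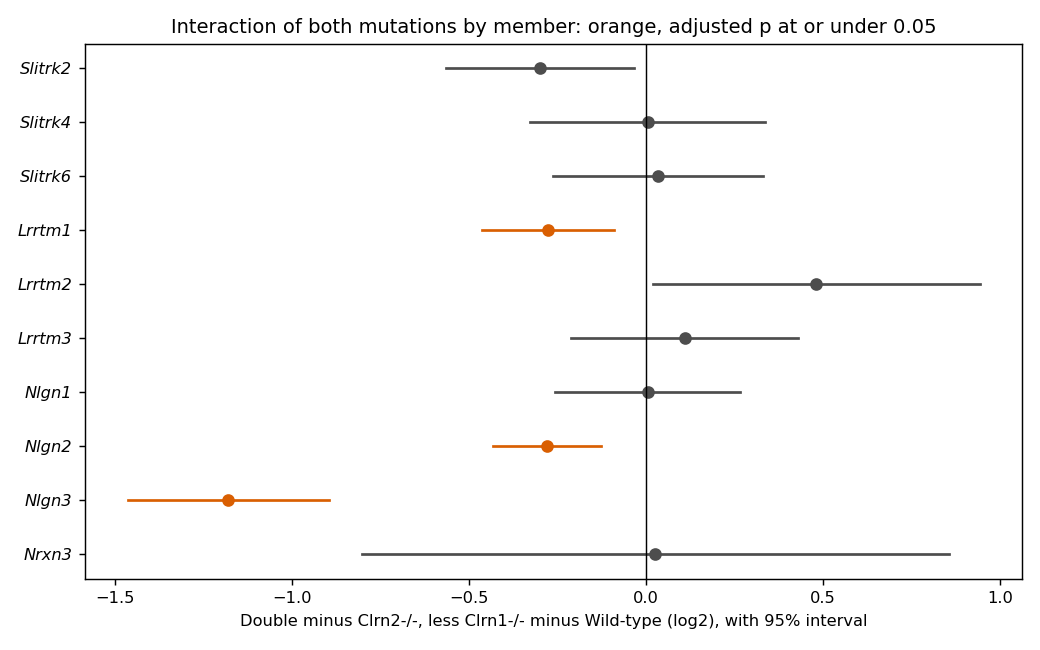
Interaction of the Clrn1 and Clrn2 genotypes for each gene, on the log2 scale with 95% intervals; orange marks an adjusted p of at most 0.05. Nlgn3 stands at -1.18, and Slitrk4, Slitrk6 and Nlgn1 lie near 0.

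Per exon length, as CPM divided by kilobases of exon (FPKM), Nlgn2 stood first in wild-type at 29.8 ± 0.442 (SD, n = 3), followed by Lrrtm3 at 8.25 ± 0.845, Lrrtm1 at 5.58 ± 0.0448 and Slitrk6 at 4.13 ± 0.224. The other 6 were under 1 FPKM. Slitrk4 at 0.846 ± 0.042, Nlgn3 at 0.819 ± 0.0857 and Nrxn3 at 0.712 ± 0.301 did not differ beyond their spread, nor did Nrxn3 and Slitrk2 at 0.677 ± 0.0355. Nlgn1 at 0.464 ± 0.019 and Lrrtm2 at 0.372 ± 0.0505 closed the order. The FPKM of Nlgn3 is over all its exon bases, of which 41.2% overlap Gm21986 on the same strand. Its level here, and its share of the neuroligins, are understated by an unknown amount. In the double mutants Slitrk6 was at 9.57 FPKM and Lrrtm3 at 3.49 FPKM. Nlgn2 made up 95.9% of the summed FPKM of the 3 neuroligins in wild-type and 93.7% in the double mutants. Lrrtm3 made up 58% of the summed FPKM of the 3 Lrrtm genes in wild-type and 36.6% in the double mutants, and Lrrtm1 39.4% and 58.6%.

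**Figure D4:**
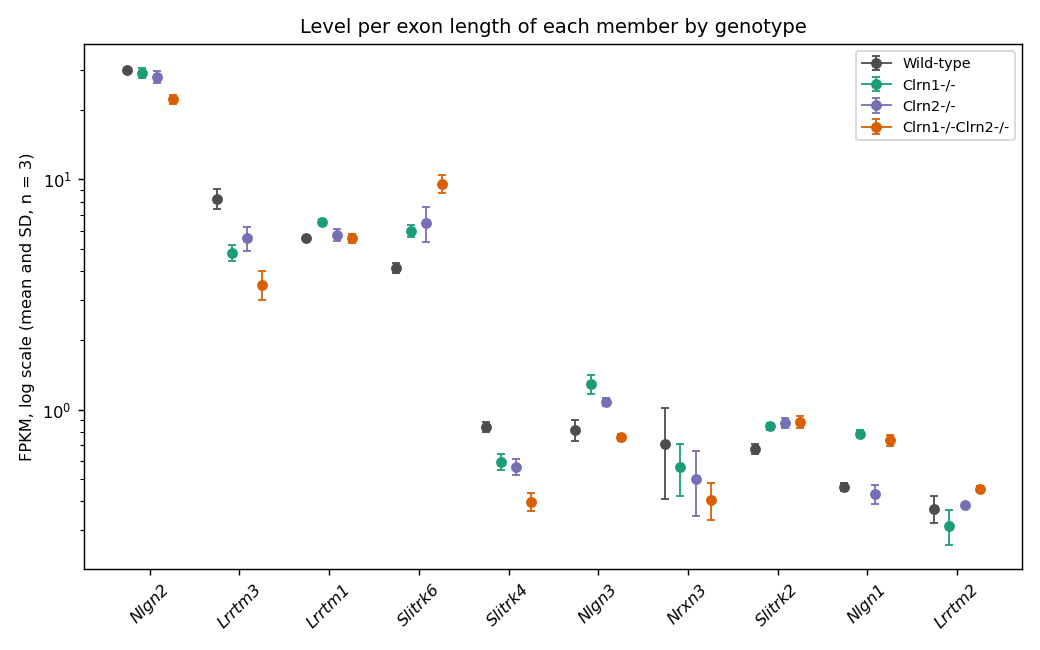
FPKM of each gene on a log axis by genotype, as mean and SD of 3 libraries, ordered by the level in wild-type. Nlgn2 is highest in every genotype. The mean of Slitrk6 lies above that of Lrrtm3 in all 3 mutants, the reverse of wild-type. In Clrn2-/- these means, 6.45 ± 1.11 and 5.56 ± 0.669 FPKM, are within their spread. There Slitrk6 exceeded Lrrtm3 in CPM only in replicate 3, at 32.7 against 20.5 CPM.

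The markers of neurons moved with genotype. The summed level of 20 neuron markers, all detected, was 17031 to 18809 CPM in wild-type and 15019 to 15750 CPM in Clrn1-/-. It was 14875 to 17251 CPM in Clrn2-/- and 11698 to 12048 CPM in the double mutants. In the double mutants 18 of 20 had a log2 fold change below 0, with a median of -0.42, and 2 were called higher and 6 lower. Per 1000 CPM of neuron markers, Lrrtm3 was at 1.98 ± 0.0919 CPM (SD, n = 3) in wild-type and 1.25 ± 0.165 CPM in the double mutants, Slitrk4 at 0.418 ± 0.00514 and 0.293 ± 0.0221, and Slitrk6 at 0.99 ± 0.0193 and 3.41 ± 0.295. On this scale Nlgn2 was at 9.77 ± 0.389 CPM in wild-type and 10.9 ± 0.591 CPM in the double mutants. Nlgn3 and Lrrtm1, whose CPM in the double mutants overlapped with wild-type, did not overlap on this scale. Nlgn3 was at 0.393 to 0.459 in wild-type and 0.571 to 0.628 in the double mutants, and Lrrtm1 at 0.904 to 0.986 and 1.34 to 1.46. Slitrk2 went from 0.31 ± 0.0314 to 0.604 ± 0.0282 and Lrrtm2 from 0.128 ± 0.0234 to 0.231 ± 0.00871. The summed level of 12 Schwann cell markers was 22301 to 23554 CPM in wild-type and 21449 to 22900 CPM in the double mutants. Their median log2 fold change there was -0.013, and none was called. The summed level of 12 supporting cell markers was 1662 to 1771 CPM in wild-type and 1993 to 2079 CPM in the double mutants. Of these, 3 were called higher and 1 lower. The sum of 12 hair cell markers was 500.3 to 573 and 626.7 to 656 CPM, with a median log2 fold change of 0.12, 2 called higher and 1 lower. Ocm, the outer hair cell protein oncomodulin, went from 67.1 to 131.2 CPM, while Gfi1 went from 7.17 to 4.46 CPM. Of the hair cell markers, 3 were called lower and none higher in Clrn1-/-, with a median of -0.19. In Clrn2-/- 2 were called higher and none lower, with a median of 0.03. Macrophage markers were above wild-type in 8 of 8 genes in Clrn1-/- and in the double mutants, with medians of 0.48 and 0.62 and 1 and 4 called, and their sum was 132.5 to 170.7 CPM in wild-type, 205.6 to 219.6 CPM in Clrn1-/- and 208.9 to 244 CPM in the double mutants. Red blood cell markers were below wild-type in 6 of 6 genes in every mutant, with 5, 5 and 2 called lower in Clrn1-/-, Clrn2-/- and the double mutants. Of 10 fibroblast markers, 3 were called higher and 2 lower in Clrn1-/-, 2 lower in Clrn2-/-, and 3 higher and 1 lower in the double mutants. The part of these cell types in the members' changes was not tested.

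The genes whose pattern over the 12 libraries was most like that of a member were found among 15400 genes by the mean absolute difference of centred log2 CPM. For Slitrk6 they were Sdc4 (0.0736), Spint2 (0.0746) and Cutal (0.077), for Slitrk4 Gjd2 (0.0575), Plaat1 (0.0615) and Rhof (0.0707), for Lrrtm3 Ccdc184 (0.105), Phf24 (0.111) and Sertm1 (0.121), and for Nlgn1 Samd8 (0.0933), Padi2 (0.0999) and Col2a1 (0.107). Sdc4, a cell-surface proteoglycan, went from 159 ± 4.87 CPM (SD, n = 3) in wild-type to 338.9 ± 13.1 CPM in the double mutants. Gjd2, which encodes the neuronal gap junction protein connexin 36, went from 51.9 ± 4.72 to 26.0 ± 2.19 CPM.

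Among 84 other genes of trans-synaptic adhesion, that is, further Slitrk, Lrrtm and neurexin genes, receptor phosphatases, latrophilins and teneurins, postsynaptic adhesion proteins such as the Lrfn, Flrt, Clstn, Adgrb and Elfn families, nectins and Cadm molecules, neuroligin inhibitors, secreted linkers and the scaffolds inside the synapse, 83 were tested. Calls numbered 3 in Clrn1-/-, 1 in Clrn2-/- and 7 in the double mutants, where 7.22%, 2.66% and 9.9% of all genes were called. In Clrn1-/- 2 were higher and 1 lower. Magi1, a scaffold that binds neuroligins, rose from 55.4 to 110.1 CPM (log2 fold change 0.99, adjusted p = 2.53e-06) and Nectin1 from 19.7 to 34.6 CPM (0.81, adjusted p = 8.77e-07), while C1ql1, a secreted ligand of the adhesion receptor Adgrb3, fell from 8.49 to 3.90 CPM (-1.11, adjusted p = 2.47e-05). C1ql1 was also the one gene called in Clrn2-/-, at -1.03 (adjusted p = 0.000126). In the double mutants 2 were called higher, Nectin3 at 0.73 (adjusted p = 1.66e-07) and Flrt3 at 0.63 (adjusted p = 6.93e-05), and 5 lower, the scaffold Dlgap3 at -0.96 (adjusted p = 3.36e-07), C1ql1 at -0.76 (adjusted p = 0.000313), the adhesion molecules Cadm2 at -0.72 (adjusted p = 6.9e-07) and Cadm3 at -0.62 (adjusted p = 4.54e-08), and the netrin-G protein Ntng2 at -0.71 (adjusted p = 2.8e-07). The median log2 fold change of the 83 was 0.09, -0.04 and -0.08 in Clrn1-/-, Clrn2-/- and the double mutants. Without wild-type replicate 2, 11 were called in the double mutants in place of 7. In Clrn2-/-, each of 6 fits with a library left out called 2 to 3 in place of 1.

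Of 5 further genes of the same families, Slitrk1, Slitrk3, Slitrk5, Lrrtm4 and Nrxn2, all stayed under the fold minimum in each mutant against wild-type (log2 fold changes from -0.57 to 0.33), and 3 passed the adjusted p in the double mutants, all lower, where 37% of all genes passed. Slitrk3 went from 47.3 CPM in wild-type to 31.9 CPM there (log2 fold change -0.57, adjusted p = 1.53e-06), Slitrk1 from 50.1 to 41.7 CPM (-0.26, adjusted p = 0.000762) and Nrxn2 from 173.0 to 132.1 CPM (-0.39, adjusted p = 1.56e-05). Lrrtm4 had a log2 fold change of 0.21 (adjusted p = 0.234). By the adjusted p, Slitrk4, Slitrk3 and Slitrk1 were lower and Slitrk6 and Slitrk2 higher than wild-type in the double mutants. The Slitrk genes thus did not move one way.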

How the data were processed

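Libraries from poly-A RNA were made with a directional kit and sequenced as paired reads. The authors deposited raw counts per gene and library, made with STAR on GRCm38.p6 with Gencode annotation, unnormalized and unfiltered; DESeq2 is also named in the submitters' processing notes. Each table has 4 rows of unassigned reads (13.5% to 15.8% of the total), which were left out. The count column in the kit's orientation was used. Groups follow the genotype labels; the sources do not say how animals make up a library, so p-values measure the spread between these samples. Coordinates and exon lengths are from Gencode M21 on the same build. In R 4.3.3, edgeR 4.0.16 kept genes by filterByExpr (minimum count 10), scaled by TMM and fitted all 12 libraries with genotype alone; log2 fold changes, standard errors and quasi-likelihood p-values with Benjamini-Hochberg adjustment over 19052 genes followed. Calls needed an adjusted p of at most 0.05 and 1.5-fold. CPM were computed from the counts on TMM-scaled totals of the genes kept, and FPKM as CPM per kilobase of exon. The fit was checked on simulated data.

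The members, lists and tests were chosen with earlier results of these data known. Named genes were the members, Clrn1, Clrn2, the catenin hosts, up to 5 called partners per direction in each mutant, and the 3 most similar genes for Slitrk6, Slitrk4, Lrrtm3 and Nlgn1; Slitrk1, Slitrk3, Slitrk5, Lrrtm4, Nrxn2, Dct, A830092H15Rik, Gm21986, Xist and Ddx3y were named after their values were seen. Alternatives were limma-voom (limma 3.58.1), DESeq2 1.42.0, RLE factors, library size alone, no filter, 2 genotypes alone, a replicate block, unstranded counts, no fold minimum and each library left out; the block with 2 genotypes alone was added after seeing the data. Deviations of same-numbered libraries correlated above 0.1 in 7 of 18 pairs (-0.279 to 0.306). All 3 pairs did so only between wild-type and Clrn1-/-, at 0.29, 0.13 and 0.11. The labels do not say whether the numbers pair samples, and the main fit took no account of them. No sequence or coordinates are given for Lrrtm2.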

Additional observations from a re-analysis of the deposited data

Results flagged for a closer look

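By the adjusted p of edgeR's interaction test 3 members passed, as did 17.4% of all genes. The interaction includes the wild-type libraries, so that breeding and genotype cannot be told apart in it. Nlgn3 had an interaction of -1.18 on the log2 scale (adjusted p = 3.11e-05), Nlgn2 of -0.28 (adjusted p = 0.0129) and Lrrtm1 of -0.28 (adjusted p = 0.0409, up to 0.0989 under the alternatives). Of the catenin hosts, Ctnna1 had an interaction of 0.41 (adjusted p = 0.000129) and Ctnna2 of -0.31 (adjusted p = 0.0102).

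Among the partners named, C1ql1 had an interaction of 1.39 (adjusted p = 0.000196), Nectin1 of -0.81 (adjusted p = 6.42e-05), Magi1 of -0.87 (adjusted p = 0.000484) and Nectin3 of 0.27, under the fold minimum. Magi1 was at 110.1 CPM in Clrn1-/- and 58.7 CPM in the double mutants. The interaction of Clrn2 was 1.38 (adjusted p = 0.00752): it was at 0.916 ± 0.107 CPM (SD, n = 3) in Clrn1-/-, where its own gene is intact, and at 1.23 ± 0.172 CPM in Clrn2-/-.

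Reads on the strand opposite to Nlgn1 were more numerous in Clrn1-/-, at 11 to 20 counts per library, than in wild-type, at 5 to 8. These counts are not part of the comparisons above, and the difference was not tested.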

How the results depend on the processing

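The calls of Slitrk6, Slitrk4, Lrrtm3 and Nlgn1 in the double mutants held under all 16 alternatives, and that of Nrxn3 under 9. Nrxn3 missed the threshold with limma-voom (-0.72), DESeq2 (-0.81), 2 genotypes alone with a replicate block (-0.74), and in 4 of the fits with a library left out, where it ranged from -0.44 to -0.86. The call of Slitrk6 in Clrn2-/- needed Clrn2-/- replicate 3, and that of Nlgn3 in Clrn1-/- needed wild-type replicate 1. The replicate block with all genotypes changed no call of a member (Nlgn1 in Clrn1-/- was at 0.76).

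Without the fold minimum, 7, 5 and 7 members passed in Clrn1-/-, Clrn2-/- and the double mutants against wild-type (26.9%, 14.2% and 37% of all genes), 7 and 6 in the double mutants against Clrn1-/- and Clrn2-/- (30.4% and 27.6%), 2 between the single mutants (18.5%) and 3 for the interaction (17.4%), and 40, 25 and 49 partners passed in the 3 mutants. Partners called in Clrn2-/- numbered 2 with library size alone, without the filter, and with 2 genotypes alone and a replicate block, in place of 1. With a library left out, members called numbered 0 to 3 in Clrn2-/- (0 without Clrn2-/- replicate 3) and 2 to 4 between the double mutants and Clrn1-/- (4 without double-mutant replicate 3), and partners called 2 to 3 in Clrn2-/- and 7 to 11 in the double mutants (11 without wild-type replicate 2).

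Signs changed only in values that were not called in either fit. The interaction of Slitrk4 was -0.00058 with DESeq2, -0.0018 with RLE factors, -0.034 with library size alone and -0.0021 without the filter, that of Nlgn1 -0.00064, -0.0017, -0.033 and -0.0023 and with unstranded counts -0.018, that of Slitrk6 -0.0045 with library size alone, and that of Nrxn3 -0.014 with limma-voom, -0.0077 with library size alone and -0.031 with unstranded counts. With library size alone, Lrrtm1 in the double mutants was 0.035 and Nlgn2 in Clrn1-/- 0.0063.

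With a library left out, the interaction ranged from -0.077 to 0.054 for Slitrk4, -0.064 to 0.16 for Slitrk6, -0.041 to 0.18 for Lrrtm3, -0.074 to 0.040 for Nlgn1 and -0.36 to 0.29 for Nrxn3. Against wild-type, Lrrtm1 ranged from -0.0080 to 0.075 in Clrn2-/- and -0.046 to 0.026 in the double mutants, Lrrtm2 from -0.047 to 0.15 in Clrn2-/-, and in Clrn1-/- Nlgn2 from -0.069 to 0.0022 and Nrxn3 from -0.59 to 0.046. Double mutants against Clrn2-/- ranged from -0.025 to 0.058 for Slitrk2 and -0.089 to 0.0018 for Lrrtm1, and Clrn1-/- against Clrn2-/- from -0.19 to 0.039 for Slitrk6 and -0.053 to 0.46 for Nrxn3. The cause was not tested.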
